A study of Mus musculus with 8 samples.

Results

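The unfolded protein response and the integrated stress response were followed through 37 mouse genes in the left ventricle, the main pumping chamber of the heart. The genes are the stress sensors and transcription factors of both responses, the chaperones, folding enzymes and degradation factors that ATF6 and XBP1 switch on, and the targets of ATF4 with the phosphatase subunits that act on eIF2alpha. The members are the rows whose symbol is on a list of 37, a rule that uses no measured value. The list itself was chosen with earlier results of these data known. Of the 37 genes, 36 had rows in the deposited table, with 84 transcripts, out of 14578 genes with 33027 transcripts in all. All 36 passed the filter on low values and were tested among 13783 genes. The enzyme gene Phgdh had no row in the values used and is not analysed here.

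RNA was sequenced from 3 groups of mice aged 6 months, on a background given in the labels only as C57. There were 3 libraries of mdx sln+/- mice, which lack dystrophin and carry 1 functional allele of the sarcolipin gene, 3 libraries of mdx mice, which lack dystrophin, and 2 libraries of wild-type (WT) mice. Dystrophin links the muscle cytoskeleton to the cell membrane, and sarcolipin inhibits the calcium pump of the sarcoplasmic reticulum. Both groups are labelled mdx, so the comparison of mdx sln+/- with mdx bears on the sarcolipin allele, and each comparison with WT uses the same 2 WT libraries. The labels give neither the sex of the mice nor the mdx or sln allele, nor whether each library is 1 animal, so each p-value speaks only of the spread between these libraries, which may be technical.

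Proteins that enter the secretory pathway fold in the endoplasmic reticulum (ER). When unfolded proteins build up there, the sensors IRE1 (gene Ern1), ATF6 and PERK (gene Eif2ak3) are activated. IRE1 splices Xbp1 mRNA into the form that encodes the active factor, ATF6 is cut in the Golgi to release its active part, and both raise chaperones, disulphide isomerases and ER-associated degradation, which sends misfolded proteins to the proteasome. PERK, like GCN2, PKR and HRI, phosphorylates the translation factor eIF2alpha, which lowers translation in general and raises that of ATF4. In heart muscle the same membrane system stores the calcium for contraction, and several ER chaperones also bind calcium.

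A level below is log2(abundance + 1) of a gene, and a difference is the log2 fold change of 2 groups on that scale, where the added 1 makes changes of weakly expressed genes look smaller. The error after a difference is its standard error from limma, and a gene was called where its adjusted p was under 0.05 across all 13783 genes. The level of Dmd, the gene mutated in mdx, was 4.09 to 4.25 in mdx sln+/-, 4.22 to 4.32 in mdx and 6.60 to 6.98 in WT libraries. All 10 cardiomyocyte markers were present, with summed abundances of 50900 to 54100 in mdx sln+/-, 50000 to 54800 in mdx and 47800 to 49300 in WT libraries. A pair of library features touches all results that follow. The Y-linked gene Eif2s3y stood at 0.92 in WT 2 and 1.31 in mdx sln+/- 3, against 6.11 in WT 1 and 3.29 to 5.91 in the other libraries. Library names were of 1 style in mdx 1, mdx 2, mdx sln+/- 1 and mdx sln+/- 2 and of another, plainer style in mdx 3, mdx sln+/- 3 and both WT libraries. Values within the 4 plainly named libraries and values without WT 2 and mdx sln+/- 3 are therefore given beside the called members.

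Against WT, a small set of members differed, and they went in both directions. In mdx hearts 6 of 36 members were called, 1 higher and 5 lower (limma). That is 16.7% of the members, against 15.1% of all genes tested, 8.15% higher and 6.94% lower. In mdx sln+/- hearts 5 members were called against WT, 2 higher and 3 lower, which is 13.9% of the members against 15.9% of all genes tested, 9.41% higher and 6.5% lower. The share of members called was thus near that of all genes in both comparisons. Herpud1, Dnajb9 and Dnajc3 were lower and Pdia4 was higher in both, which are the 4 genes called in both comparisons. These comparisons share the 2 WT libraries and the fit, so a call in both is not independent evidence. Eif2ak3 and Ern1 were called lower in mdx only, and Pdia6 was called higher in mdx sln+/- only. That these 3 genes differ between mdx sln+/- and mdx was not shown, since no member was called in that comparison. With median-ratio scaling the calls over all genes in mdx sln+/- against WT were 926 higher and 1149 lower, in place of 1297 higher and 896 lower. In mdx against WT they were 998 higher and 1098 lower, in place of 1123 higher and 957 lower.

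Positions of the 7 called genes are those of GENCODE M21 (GRCm38/mm10). On the plus strand are Herpud1 at chr8:94386438-94395377, Dnajc3 at chr14:118937976-118981697, Eif2ak3 at chr6:70844515-70905245 and Pdia6 at chr12:17266545-17284770. On the minus strand are Dnajb9 at chr12:44205559-44210326, Ern1 at chr11:106394650-106487852 and Pdia4 at chr6:47796141-47813430. Herpud1 overlaps the antisense gene Gm15890, Eif2ak3 the antisense gene Gm43292 and Pdia6 the antisense gene Atp6v1c2. Dnajb9 overlaps the microRNA gene Mir5627 on the opposite strand. Whether counting used strand is not given in the sources used here, and without strand the reads of such partners cannot be told apart.

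**Figure D1:**
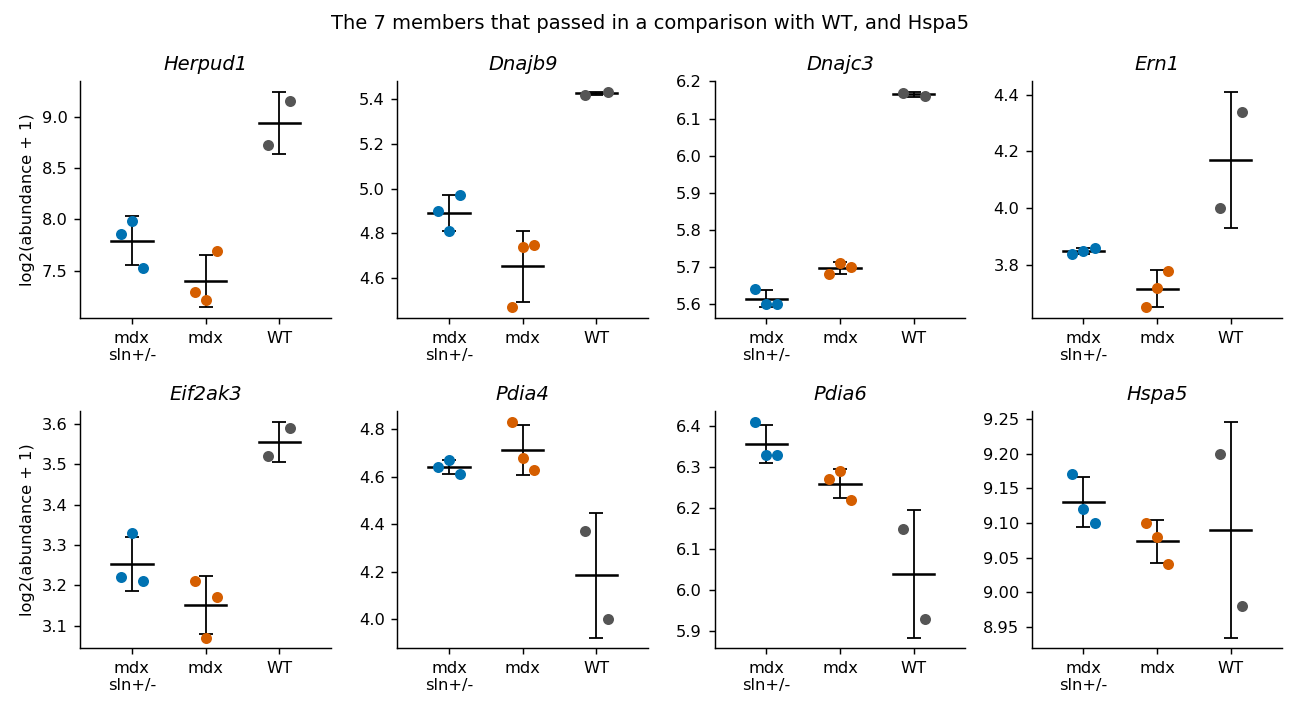
Level, as log2(abundance + 1), of the 7 members that passed the test in a comparison with WT, and of Hspa5, in each library (points) of mdx sln+/-, mdx and WT. The long bars are group means and the error bars SD (n = 3, 3 and 2), and each axis has its own range. Herpud1, Dnajb9, Dnajc3, Ern1 and Eif2ak3 lay below both WT libraries in all 6 mdx and mdx sln+/- libraries, Pdia4 and Pdia6 lay above them, and Hspa5 overlapped.

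Among the sensors, the mRNAs of IRE1 and PERK were lower in mdx hearts and that of ATF6 was not called. The level of Ern1 was 3.84, 3.85 and 3.86 in mdx sln+/-, 3.65, 3.72 and 3.78 in mdx and 4.0 and 4.34 in WT. All 6 libraries of the mdx groups lay below both WT libraries, of which WT 2 was the higher. Ern1 fell by 0.45 ± 0.12 in mdx against WT, a 1.37-fold lower level (limma, adjusted p = 0.0414), and its difference in mdx sln+/- against WT was -0.32 ± 0.12 (adjusted p = 0.102). The level of Eif2ak3 was 3.22, 3.33 and 3.21 in mdx sln+/-, 3.21, 3.07 and 3.17 in mdx and 3.52 and 3.59 in WT, again without overlap with WT. Eif2ak3 fell by 0.40 ± 0.10 in mdx against WT, a 1.32-fold lower level (limma, adjusted p = 0.0329), with -0.30 ± 0.10 in mdx sln+/- against WT (adjusted p = 0.0713). Both calls depend on the libraries included, and that of Ern1 on the processing too. Ern1 lost its call when any of WT 2, mdx 1, mdx 3, mdx sln+/- 1 or mdx sln+/- 3 was left out (limma, adjusted p of 0.0669 to 0.147), with a difference of -0.28 without WT 2. It was also lost with the style of library name as a term, with r2 columns alone, with the most abundant transcript and with only the groups compared (limma, adjusted p = 0.0747, 0.067, 0.0507 and 0.0508), and Ern1 kept its call in 10 of 21 alternatives. Eif2ak3 lost its call without any of WT 1, WT 2, mdx 1, mdx 3, mdx sln+/- 1 or mdx sln+/- 3 (limma, adjusted p of 0.059 to 0.128) and kept it in 13 of 21 alternatives. Within the plainly named libraries the differences of mdx from WT were -0.39 ± 0.19 for Ern1 and -0.38 ± 0.17 for Eif2ak3, neither of them called. Without WT 2 and mdx sln+/- 3 they were -0.29 ± 0.12 and -0.36 ± 0.14, likewise not called.

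The level of Atf6 was 6.82, 6.98 and 6.84 in mdx sln+/-, 6.90, 6.79 and 6.99 in mdx and 6.89 and 7.23 in WT. The groups overlapped, and the difference was -0.17 ± 0.12 in mdx against WT (limma, adjusted p = 0.382) and -0.18 ± 0.12 in mdx sln+/- against WT (adjusted p = 0.339). These are mRNA levels. ATF6 is activated by cleavage, IRE1 and PERK by phosphorylation, and none of these steps is measured by RNA abundance.

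With all libraries, the mRNAs of the transcription factors XBP1 and ATF4 were not called in any comparison. The level of Xbp1 was 5.84, 5.74 and 5.73 in mdx sln+/-, 5.81, 5.89 and 5.87 in mdx and 5.87 and 5.80 in WT. Its difference was 0.03 ± 0.07 in mdx against WT, with a 95% interval of -0.14 to 0.20, and -0.06 ± 0.07 in mdx sln+/- against WT. The level of Atf4 was 5.99, 5.80 and 5.76 in mdx sln+/-, 5.99, 6.13 and 6.12 in mdx and 5.80 and 6.45 in WT. The WT libraries, with WT 1 low and WT 2 high, enclosed all mdx libraries and mdx sln+/- 1. In mdx sln+/- 2 and mdx sln+/- 3 the level lay slightly below that of WT 1. The difference of Atf4 was -0.05 ± 0.19 in mdx against WT, with a 95% interval of -0.49 to 0.39. Its sign depended on the WT library, with a difference in mdx against WT of -0.37 without WT 1 and 0.28 without WT 2. Against WT, Atf4 in mdx sln+/- differed by -0.28 ± 0.19 (limma, adjusted p = 0.332). Without WT 1 it was -0.60 and Atf4 was called lower (limma, adjusted p = 0.0336), and without WT 2 it was 0.05.

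IRE1 removes a short intron from Xbp1 mRNA in the cytoplasm, and the spliced product is the usual RNA readout of the sensor. That product could not be separated here, because none of the 4 annotated Xbp1 transcripts has an intron shorter than 300 bases. Shares of transcripts, here and below, rest on the deposited values, and whether these were divided by length is not given. The protein-coding transcript Xbp1-201 made up 90.4% of the gene's abundance, at 5.60 to 5.72 in mdx sln+/-, 5.62 to 5.72 in mdx and 5.68 to 5.74 in WT. Xbp1-203, a shorter transcript with 3 exons, held 7.08% of it. Its level was 2.09, 2.10 and 2.15 in mdx sln+/-, 2.6, 2.57 and 2.50 in mdx and 2.18 and 2.07 in WT, so that mdx lay above both other groups without overlap. This transcript was singled out after its values were seen, and no test was made of it.

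The 21 targets of ATF6 and XBP1 made up most of the members and held both of the members called higher. In mdx against WT 1 was called higher, 3 were called lower and 17 did not pass, with a median difference of 0.13 beside 0.02 over all genes tested. In mdx sln+/- against WT 2 were called higher, 3 lower and 16 did not pass, with a median of 0.18 beside 0.05 over all genes. Of all genes tested, 8.15% were called higher and 6.94% lower in mdx, and 9.41% higher and 6.5% lower in mdx sln+/-. The differences of single targets spread from -1.55 to 0.53 in mdx against WT and from -1.16 to 0.45 in mdx sln+/- against WT. The sign was positive for 14 of 21 targets in mdx and for 16 of 21 in mdx sln+/-, beside 7314 and 7970 of all 13783 genes tested. Calls went both ways within the list, and the called genes belong to different steps of protein folding, taken in turn below.

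**Figure D2:**
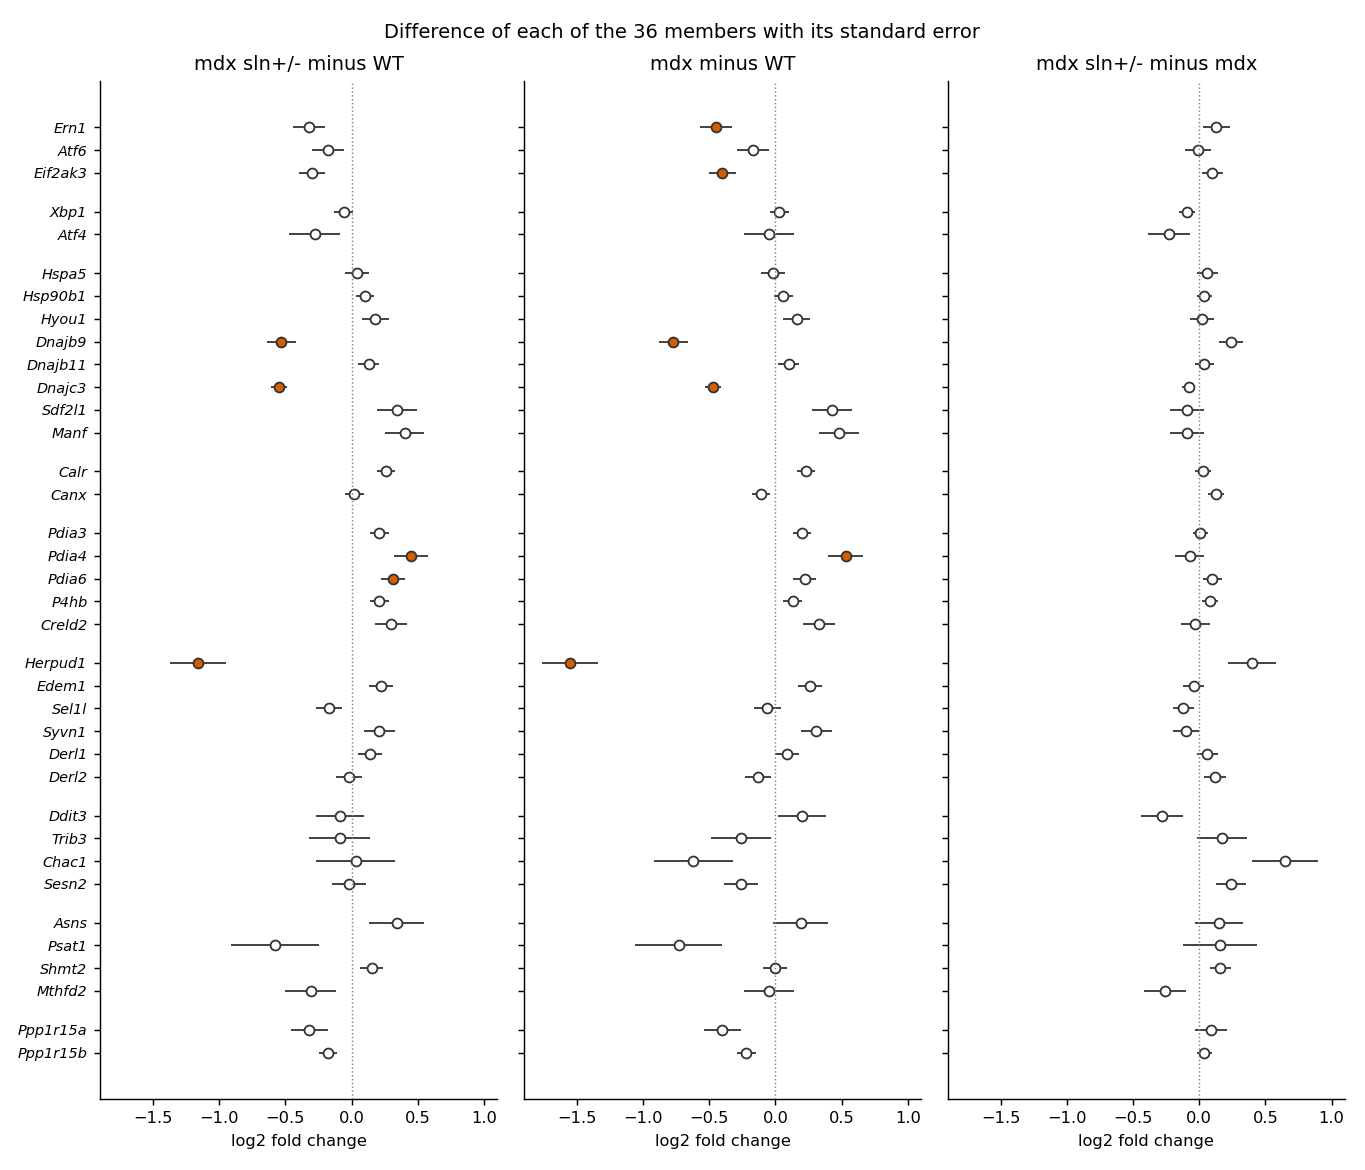
Log2 fold change (horizontal axis) of the 36 members in mdx sln+/- against WT, mdx against WT and mdx sln+/- against mdx, with bars for the standard error from limma. Members run from sensors at the top through transcription factors, chaperones, lectin chaperones, disulphide isomerases, degradation factors and ATF4 regulatory targets to amino acid enzymes and phosphatase subunits. Filled points passed an adjusted p of 0.05: 5 in mdx sln+/- against WT, 6 in mdx against WT and 0 in mdx sln+/- against mdx.

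Targets of ATF6 and XBP1 are known in part by the ER stress response element (ERSE), which binds ATF6 and XBP1 together with the factor NF-Y. It has the letters CCAAT and CCACG with 9 bases of any kind between them. Windows from 250 bases before to 50 after the annotated start were read from RefSeq promoters of GRCm38.p6 on both strands, and 32 of the 37 members had one. An ERSE match stood in the windows of 8 of 18 target genes (44.4%), against 0.119% of all 32851 windows. No window of an ATF4 target held one. Members are counted by gene, here and below, whereas the background is counted by window, with 32851 windows for 27025 genes. These matches are a description of the windows and are shown because the same letters precede genes that were lower, genes that were higher and genes that were not called. The first 6 sites belong to members that were not called, written 5′ to 3′ along the match with the element's fixed letters in capitals. They lie at chr2:34772025-34772043 for Hspa5, chr8:84847075-84847093 for Calr, chr11:50325800-50325818 for Canx, chr15:88819520-88819538 for Creld2, chr10:86705533-86705551 for the first of a pair at Hsp90b1 and chr19:6046532-6046550 for Syvn1. The matches of Canx and Creld2 are on the minus strand of the genome and the other 4 on the plus strand.
Hspa5: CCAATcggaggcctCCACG
Calr: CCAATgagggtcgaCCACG
Canx: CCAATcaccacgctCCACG
Creld2: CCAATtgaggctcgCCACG
Hsp90b1: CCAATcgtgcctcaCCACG
Syvn1: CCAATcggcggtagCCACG

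The 8 genes with an ERSE match were the 6 above with Dnajc3 and Pdia6. Their differences from WT ran from -0.47 to 0.33 in mdx and from -0.55 to 0.31 in mdx sln+/-, with medians of 0.14 and 0.15. The 10 targets whose windows held no exact ERSE match ran from -1.55 to 0.53 and from -1.16 to 0.45, with medians of 0.12 and 0.17. Of the genes with an exact match, Dnajc3 was called lower and Pdia6 higher in mdx sln+/- hearts. The promoters of 4 called genes follow, read along the gene's own strand, with matches to ERSE or to the related elements described next in capitals. They cover chr14:118937682-118937931 (plus strand) for Dnajc3, chr8:94386179-94386428 (plus strand) for Herpud1, chr12:17266339-17266544 (plus strand) for Pdia6 and chr6:47813513-47813762 (minus strand) for Pdia4.
Dnajc3: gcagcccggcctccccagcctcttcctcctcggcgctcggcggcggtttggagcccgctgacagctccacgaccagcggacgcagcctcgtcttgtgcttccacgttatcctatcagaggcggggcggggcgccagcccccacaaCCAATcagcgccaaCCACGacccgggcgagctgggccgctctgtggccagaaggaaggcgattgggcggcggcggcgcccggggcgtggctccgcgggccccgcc
Herpud1: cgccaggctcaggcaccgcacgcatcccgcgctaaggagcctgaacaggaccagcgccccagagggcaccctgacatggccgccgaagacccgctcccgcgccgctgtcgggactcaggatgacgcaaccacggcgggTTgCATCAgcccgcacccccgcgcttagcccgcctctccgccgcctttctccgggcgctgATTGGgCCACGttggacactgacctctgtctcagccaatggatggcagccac
Pdia6: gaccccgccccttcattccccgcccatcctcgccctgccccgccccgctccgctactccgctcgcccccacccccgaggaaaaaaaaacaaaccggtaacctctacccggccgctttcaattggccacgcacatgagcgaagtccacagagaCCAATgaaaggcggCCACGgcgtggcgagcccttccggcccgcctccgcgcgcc
Pdia4: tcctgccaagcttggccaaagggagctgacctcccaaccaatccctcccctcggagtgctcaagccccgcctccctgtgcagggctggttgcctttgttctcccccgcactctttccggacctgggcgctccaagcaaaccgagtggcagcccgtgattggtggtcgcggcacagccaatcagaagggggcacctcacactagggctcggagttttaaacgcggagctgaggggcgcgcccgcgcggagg

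In the Dnajc3 and Pdia6 promoters the capitals mark the ERSE, which starts 105 and 98 bases before the RefSeq start site. Distances in this paragraph are from RefSeq starts, which differ from the GENCODE starts given above. The Pdia6 stretch is 206 bases long because it was ended before the GENCODE start. In the Herpud1 promoter the second run of capitals, 52 bases before the start, marks ERSE-II, a shorter element of ATTGG and CCACG with 1 base of any kind between them. ERSE-II stood in the windows of 2 of 18 target genes (11.1%), Herpud1 and Dnajb11, against 0.0365% of all windows. The first run of capitals in Herpud1 marks the core of the element that binds ATF4 with its partners (TGATGNAA, here on the opposite strand, 112 bases before the start). That core stood in the windows of 3 of 10 genes of the ATF4 list (30%), Asns, Chac1 and Trib3, against 3.97% of all windows. Among the targets of ATF6 and XBP1 it stood in Herpud1 alone. The core of the XBP1 element UPRE (TGACGTGG) was in no member's window and in 0.676% of all windows, and none of these elements matched in the Pdia4 window. No matches of different elements overlapped each other.

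Herpud1 had the largest difference of the 36 members in both comparisons with WT. It encodes an ER membrane protein that organises the ubiquitin ligase complex of ER-associated degradation, and it is a target of both the ATF6 and the ATF4 branch. Its level was 7.86, 7.99 and 7.53 in mdx sln+/-, 7.29, 7.21 and 7.69 in mdx and 8.73 and 9.16 in WT. Every library of the mdx groups lay below both WT libraries, and mdx sln+/- overlapped with mdx. Herpud1 fell by 1.55 ± 0.21 in mdx against WT, a 2.94-fold lower level (limma, adjusted p = 0.00726), and by 1.16 ± 0.21 in mdx sln+/- against WT, a 2.23-fold lower level (adjusted p = 0.0154). Because the samples are pieces of tissue, fewer cells that express a gene and less of its RNA per cell cannot be told apart, here and below.

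The lower level held for both main transcripts of Herpud1. Herpud1-201, with 69.4% of the gene's abundance, was at 7.31, 7.45 and 6.97 in mdx sln+/-, 6.79, 6.67 and 7.16 in mdx and 8.21 and 8.66 in WT. Herpud1-205, with 28.9%, was at 6.15, 6.29 and 5.83 in mdx sln+/-, 5.36, 5.35 and 5.96 in mdx and 6.93 and 7.35 in WT. Both are protein coding, and in both cases all 6 libraries of the mdx groups lay below WT. The call of Herpud1 in mdx against WT stood when any 1 library was left out. In mdx sln+/- against WT it was lost without WT 2, mdx sln+/- 1 or mdx sln+/- 3 (limma, adjusted p of 0.0584 to 0.0851), with differences of -1.20 to -0.94. Within the plainly named libraries mdx and mdx sln+/- were 1 library each. The difference from WT there was -1.26 ± 0.20 in mdx and -1.41 ± 0.20 in mdx sln+/-. Without WT 2 and mdx sln+/- 3 it was -1.30 ± 0.20 in mdx and -0.76 ± 0.22 in mdx sln+/-, neither of them called.

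**Figure D3:**
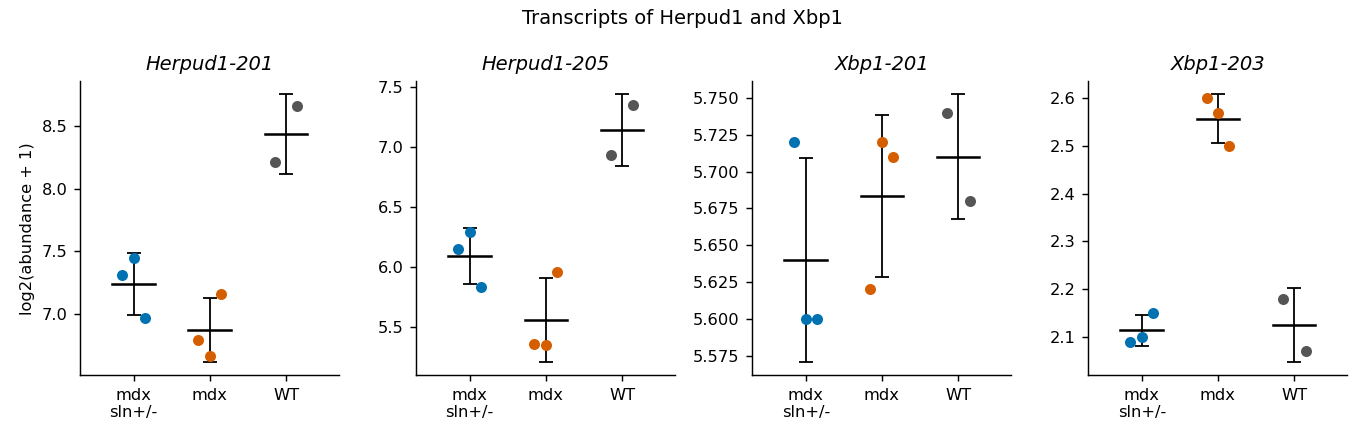
Level, as log2(abundance + 1), of 2 transcripts of Herpud1 and 2 of Xbp1 in each library (points) of mdx sln+/-, mdx and WT, with group means (long bars) and SD (error bars, n = 3, 3 and 2). Each axis has its own range. Both Herpud1 transcripts were below WT in all 6 libraries of the mdx groups, Xbp1-201 overlapped between groups, and Xbp1-203 was at 2.50 to 2.6 in mdx against 2.07 to 2.18 in WT.

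The other degradation factors were not called. Edem1, which picks out misfolded glycoproteins for degradation, and Syvn1, the ubiquitin ligase HRD1 itself, lay above both WT libraries in every mdx and mdx sln+/- library without being called. Their differences in mdx against WT were 0.26 ± 0.09 and 0.31 ± 0.12. Of all genes tested, 27.8% lay above WT without overlap in mdx and 36.4% in mdx sln+/-. Sel1l, the adaptor of HRD1, and the channel components Derl1 and Derl2 had differences of -0.13 to 0.09 in mdx and -0.17 to 0.14 in mdx sln+/- against WT. Apart from Herpud1, none of the 6 genes of this group was called.

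Among the 8 chaperones and cofactors, a pair of BiP cofactors was called lower and BiP itself was not called. Dnajb9 encodes ERdj4, a J-domain protein that brings BiP to its clients and to IRE1. Its level was 4.90, 4.81 and 4.97 in mdx sln+/-, 4.47, 4.74 and 4.75 in mdx and 5.42 and 5.43 in WT. The 3 groups did not overlap, with mdx lowest, mdx sln+/- between and WT highest. Dnajb9 fell by 0.77 ± 0.11 in mdx against WT, a 1.71-fold lower level (limma, adjusted p = 0.00775), and by 0.53 ± 0.11 in mdx sln+/- against WT, a 1.45-fold lower level (adjusted p = 0.0208). The difference between mdx sln+/- and mdx was 0.24 ± 0.09 and was not called (limma, adjusted p = 0.578). The call against WT in mdx stood when any 1 library was left out, and that in mdx sln+/- was lost without WT 1, WT 2, mdx sln+/- 1 or mdx sln+/- 3 (limma, adjusted p of 0.058 to 0.0964).

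Dnajc3 encodes the BiP cofactor ERdj6, also known as P58IPK, an inhibitor of the eIF2alpha kinases. Its level was 5.64, 5.60 and 5.60 in mdx sln+/-, 5.68, 5.71 and 5.70 in mdx and 6.17 and 6.16 in WT. Here too the groups did not overlap, with mdx sln+/- lowest and a spread within groups of at most 0.02 (SD). Dnajc3 fell by 0.47 ± 0.06 in mdx against WT, a 1.38-fold lower level (limma, adjusted p = 0.00644), and by 0.55 ± 0.06 in mdx sln+/- against WT, a 1.46-fold lower level (adjusted p = 0.00421). Both calls stood when any 1 library was left out, and Dnajc3 is the only member of which this holds in both comparisons. Within the plainly named libraries the differences were -0.47 ± 0.13 in mdx and -0.56 ± 0.13 in mdx sln+/- against WT, of the same size but not called (limma, adjusted p = 0.172 and 0.0878). Within those 4 libraries mdx and mdx sln+/- are 1 library each. The corresponding values of Dnajb9 were -0.68 ± 0.13 and -0.45 ± 0.13, likewise not called (limma, adjusted p = 0.1 and 0.159). Without WT 2 and mdx sln+/- 3, Dnajc3 differed from WT by -0.47 ± 0.09 in mdx and -0.55 ± 0.10 in mdx sln+/-, and Dnajb9 by -0.78 ± 0.15 and -0.58 ± 0.17. None of these was called.

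Hspa5 encodes BiP, the main ER chaperone and the usual marker of the unfolded protein response. Its level was 9.17, 9.12 and 9.10 in mdx sln+/-, 9.10, 9.08 and 9.04 in mdx and 9.20 and 8.98 in WT. The WT libraries enclosed all 6 others. The difference was -0.02 ± 0.09 in mdx against WT, with a 95% interval of -0.22 to 0.19, and 0.04 ± 0.09 in mdx sln+/- against WT, with an interval of -0.17 to 0.25. Hsp90b1, the chaperone GRP94, Hyou1, the nucleotide exchange factor of BiP, and Dnajb11, another of its J-domain cofactors, had differences of 0.06 to 0.16 in mdx and 0.10 to 0.18 in mdx sln+/- against WT, none of them called. Manf and Sdf2l1, a secreted ER stress factor and a partner of BiP cofactors, lay above both WT libraries in every mdx and mdx sln+/- library. With median-ratio scaling Sdf2l1 in mdx sln+/- overlapped with WT. Their differences in mdx against WT were 0.48 ± 0.15 and 0.43 ± 0.15 and were not called (limma, adjusted p = 0.0674 and 0.103). WT 2 was the lower WT library for both. Such a place above WT was held by 27.8% of all genes tested in mdx and 36.4% in mdx sln+/-.

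The 5 members that act on disulphide bonds all stood above WT. These genes, Pdia3, Pdia4, Pdia6, P4hb and the related Creld2, lay above both WT libraries in every library of mdx and of mdx sln+/-. With median-ratio scaling this held except for Creld2 in mdx sln+/-, at 3.37 to 3.64 against 3.22 to 3.38 in WT. In mdx against WT this absence of overlap held for 58.3% of the members in either direction, against 51.4% of all genes tested, and for 27.8% of all genes in the upward direction. In mdx sln+/- against WT it held for 63.9% of the members, against 59.8% of all genes tested, 36.4% upward. Only Pdia4 passed the test in mdx, and Pdia4 and Pdia6 passed in mdx sln+/-. The level of Pdia4, the isomerase ERp72, was 4.64, 4.67 and 4.61 in mdx sln+/-, 4.83, 4.68 and 4.63 in mdx and 4.37 and 4.0 in WT. Pdia4 rose by 0.53 ± 0.13 in mdx against WT, a 1.44-fold higher level (limma, adjusted p = 0.0333), and by 0.45 ± 0.13 in mdx sln+/- against WT, a 1.37-fold higher level (adjusted p = 0.0488).

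Pdia6 encodes the isomerase P5, which also binds IRE1. Its level was 6.41, 6.33 and 6.33 in mdx sln+/-, 6.27, 6.29 and 6.22 in mdx and 6.15 and 5.93 in WT. Pdia6 rose by 0.31 ± 0.09 in mdx sln+/- against WT, a 1.24-fold higher level (limma, adjusted p = 0.0485), and its difference in mdx against WT was 0.22 ± 0.09 (adjusted p = 0.128). In both genes WT 2 was the lower WT library, and without it the differences in mdx sln+/- against WT were 0.27 for Pdia4 and 0.20 for Pdia6. Neither of these was called, and for Pdia4 in mdx it was 0.34 (limma, adjusted p of 0.123 to 0.185 for the 3 values). The calls of both genes were also lost without any of mdx 3, mdx 1, mdx sln+/- 1 or mdx sln+/- 3, and that of Pdia4 in mdx sln+/- without mdx sln+/- 2. Both calls in mdx sln+/- also ended under median-ratio scaling (limma, adjusted p = 0.0738 and 0.0797) and with the style of library name as a term (0.0899 and 0.0793), as did that of Pdia4 in mdx with that term (0.0654). The calls of Pdia4 and Pdia6 in mdx sln+/- ended with r2 columns alone too (limma, adjusted p = 0.0722 and 0.0638). Over the 21 alternatives, Pdia4 kept its call in 13 in mdx and 8 in mdx sln+/-, and Pdia6 in 10 in mdx sln+/-. Within the plainly named libraries Pdia4 differed from WT by 0.44 ± 0.19 in mdx and 0.42 ± 0.19 in mdx sln+/-, and Pdia6 by 0.29 ± 0.15 in mdx sln+/-. Without WT 2 and mdx sln+/- 3 these were 0.35 ± 0.12, 0.29 ± 0.14 and 0.22 ± 0.11, and none of the 6 values was called. The differences of Pdia3, P4hb and Creld2 were 0.13 to 0.33 in mdx and 0.21 to 0.30 in mdx sln+/- against WT. Other enzymes of disulphide bonds, outside the members, did not all stand above WT. Ero1l and Txndc5 overlapped with WT, with differences of -0.22 and 0.08 in mdx and -0.06 and 0.01 in mdx sln+/-. Dnajc10 and Txndc11 lay below WT without overlap, at -0.24 and -0.24 in mdx and -0.14 and -0.34 in mdx sln+/-, and Ero1lb and Pdia5 lay above, at 0.17 and 0.38 in mdx and 0.28 and 0.50 in mdx sln+/-. None of these 6 genes was called, and they were named after their values were seen.

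The lectin chaperones Calr and Canx hold glycoproteins until they are folded, and calreticulin also stores ER calcium. Calr lay above both WT libraries in every other library, with differences of 0.23 ± 0.07 in mdx (limma, adjusted p = 0.077) and 0.26 ± 0.07 in mdx sln+/- (adjusted p = 0.0526), neither of them called. Canx differed by -0.11 ± 0.07 in mdx and 0.02 ± 0.07 in mdx sln+/- against WT. Like Calr, 27.8% of all genes tested lay above WT without overlap in mdx and 36.4% in mdx sln+/-.

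Markers of other cell types also differed between the groups. The 12 macrophage markers summed to abundances of 328 to 385 in mdx sln+/-, 320 to 407 in mdx and 240 to 242 in WT libraries, and 5 of 12 were called higher in each comparison with WT. The 10 fibroblast markers summed to 1860 to 2040 in mdx sln+/-, 1830 to 1930 in mdx and 1410 to 2040 in WT libraries, and the collagen genes Col1a1 and Col3a1 were called higher in both. Of 10 markers of B and plasma cells, 2 had rows, summing to 12.2 to 12.6 in mdx sln+/-, 9.48 to 14.9 in mdx and 7.44 to 8.26 in WT libraries, and Ighm was called higher in both. These values stand beside the isomerases and chaperones above WT, and their part in those results was not tested. The sums of the 8 endothelial and 7 smooth muscle and pericyte markers were 1030 to 1140 and 624 to 778 in mdx sln+/-, 989 to 1140 and 632 to 825 in mdx, and 945 to 1090 and 575 to 579 in WT libraries. Of these, Emcn and Tek of the endothelium were called higher in both comparisons with WT, and Vwf was called lower in mdx, with a difference of -1.20. Cspg4 and Notch3 of smooth muscle and pericytes and the cardiomyocyte marker Nppa were called higher in mdx. Other markers of these lists went the other way in mdx against WT. Differences were negative for 2 of 7 smooth muscle and pericyte markers and 3 of 10 cardiomyocyte markers, such as Acta2 at -0.48 and Pln at -0.44. They were also negative for 2 of 10 fibroblast and 3 of 8 endothelial markers. Of these negative markers only Vwf was called.

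None of the 10 tested ATF4 targets and eIF2alpha phosphatase subunits on the member list was called in any comparison. These 10 genes had a median difference of -0.24 in mdx against WT, beside 0.02 over all genes, and 8 of 10 were negative. In mdx sln+/- against WT the median was -0.09, beside 0.05 over all genes, and 7 of 10 were negative. Of all 13783 genes tested, 6469 were negative in mdx and 5813 in mdx sln+/- against WT. Among the 10 genes, counts of unadjusted p under 0.05 were 2 and 1, in the limma fit that called none. The share of all genes under that level was 32.5% in mdx and 33.7% in mdx sln+/- against WT.

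All 4 regulatory targets of ATF4 overlapped with WT in mdx sln+/-, and 2 of them, Chac1 and Sesn2, lay below WT in mdx, as did 23.6% of all genes. Ddit3 encodes CHOP, the factor tied to cell death under lasting ER stress. Its level was 3.49, 3.36 and 3.21 in mdx sln+/-, 3.78, 3.63 and 3.49 in mdx and 3.17 and 3.70 in WT, so that the WT libraries spanned most of the others. The difference was 0.20 ± 0.18 in mdx and -0.09 ± 0.18 in mdx sln+/- against WT. Ddit3 overlaps Mars on the opposite strand. Chac1, which degrades glutathione, had levels of 3.05, 3.52 and 2.72 in mdx sln+/-, 2.50, 2.03 and 2.82 in mdx and 3.05 and 3.08 in WT. All 3 mdx libraries of Chac1 lay below WT, with a difference of -0.62 ± 0.30 that was not called (limma, adjusted p = 0.196). Sesn2, an inhibitor of mTORC1 signalling, differed by -0.26 ± 0.13 in mdx, and Trib3, a pseudokinase that binds AKT and CHOP, by -0.26 ± 0.23, neither of them called.

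The subunits that direct protein phosphatase 1 to eIF2alpha lay below both WT libraries in all 6 libraries of the mdx groups. The level of Ppp1r15a, the stress-induced subunit GADD34, was 5.05, 5.12 and 4.77 in mdx sln+/-, 5.06, 4.75 and 4.88 in mdx and 5.24 and 5.35 in WT. Its difference was -0.40 ± 0.14 in mdx (limma, adjusted p = 0.0947) and -0.32 ± 0.14 in mdx sln+/- against WT (adjusted p = 0.157). The level of Ppp1r15b, the constitutive subunit CReP, was 4.74, 4.74 and 4.67 in mdx sln+/-, 4.70, 4.66 and 4.68 in mdx and 4.83 and 4.96 in WT. Its difference was -0.22 ± 0.07 in mdx (limma, adjusted p = 0.0947) and -0.18 ± 0.07 in mdx sln+/- against WT (adjusted p = 0.139). Neither gene was called, and 23.6% of all genes lay below WT without overlap in mdx and 23.5% in mdx sln+/-.

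The enzymes of amino acid and one-carbon metabolism that ATF4 controls were spread around 0. Asns, which makes asparagine, differed by 0.19 ± 0.21 in mdx and 0.34 ± 0.21 in mdx sln+/- against WT. Psat1, of serine synthesis, differed by -0.73 ± 0.33 and -0.58 ± 0.33, with levels of only 0.73 to 1.60 in the mdx libraries. The mitochondrial folate enzymes Shmt2 and Mthfd2 differed by -0.00 ± 0.09 and -0.05 ± 0.19 in mdx and by 0.15 ± 0.09 and -0.31 ± 0.19 in mdx sln+/-. None of the 4 was called.

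The WT libraries stood apart from each other in several members. WT 2 was below WT 1 for 16 of 21 targets of ATF6 and XBP1, above it for 7 of 10 ATF4 targets and phosphatase subunits and above it for 4 of 5 sensors and transcription factors. The median over the targets of ATF6 and XBP1, relative to the WT mean, was 0.13 to 0.20 in mdx sln+/-, 0.13 to 0.15 in mdx and 0.06 and -0.06 in WT 1 and WT 2. For the ATF4 list it was -0.29 to 0.02 in mdx sln+/-, -0.24 to -0.18 in mdx and -0.06 and 0.06 in WT 1 and WT 2. For 14 of 36 members (38.9%) the gap between the WT libraries was larger than the difference of mdx from WT, as it was for 42.5% of all genes tested.

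**Figure D4:**
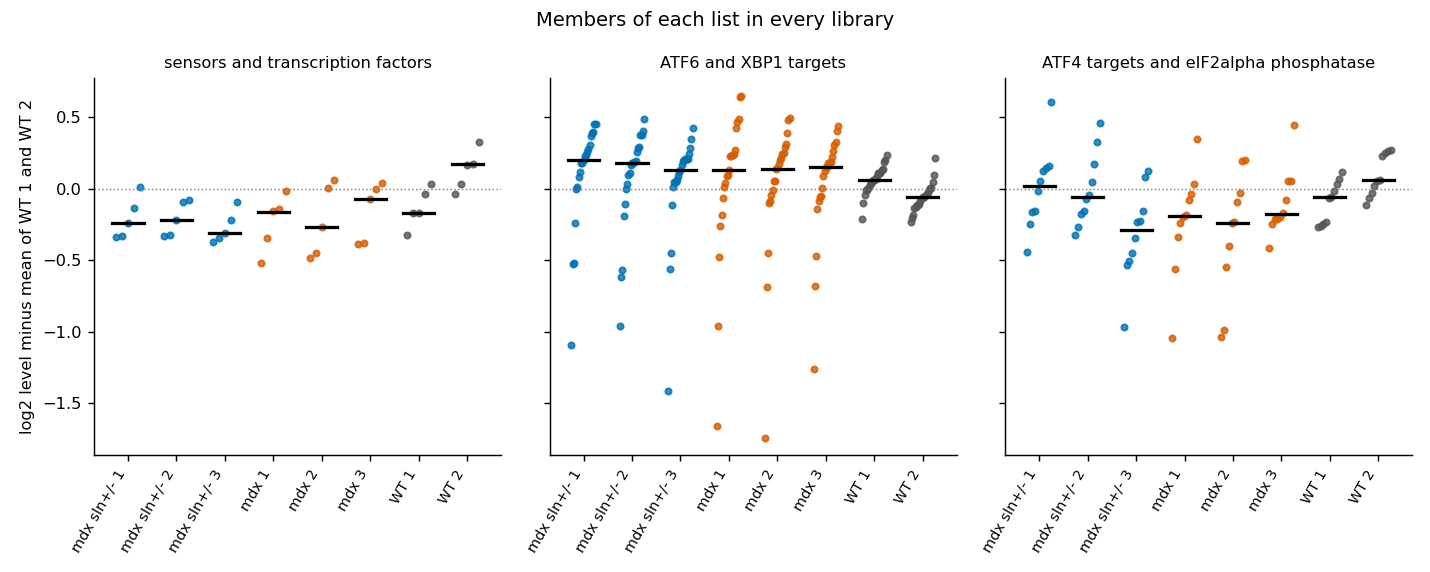
Level of each member minus the mean of WT 1 and WT 2 (log2 scale, vertical axis) in every library of mdx sln+/-, mdx and WT, for the 5 sensors and transcription factors, the 21 targets of ATF6 and XBP1 and the 10 ATF4 targets and eIF2alpha phosphatase subunits. Points are genes, sorted within a library, and bars are medians. The medians of the ATF6 and XBP1 targets are 0.13 to 0.20 in the 6 libraries of the mdx groups, Herpud1 is the lowest point there in each of them, and those of the ATF4 list spread from -0.29 to 0.02.

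Between mdx sln+/- and mdx no member was called, nor was any gene of the 13783 tested (limma). At an unadjusted p under 0.05 there were 2 members, Dnajb9 and Chac1, which is 5.56% of the members against 8.6% of all genes (1186 genes), and the smallest adjusted p of a member was 0.578. No overlap between the groups was seen for 9 members (25%), against 24.8% of all genes. The median difference was 0.03 for the targets of ATF6 and XBP1, 0.15 for the ATF4 list and 0.03 over all genes. Herpud1 differed by 0.40 ± 0.18, with a 95% interval of -0.03 to 0.82. Chac1 differed by 0.65 ± 0.25, with an interval of 0.06 to 1.24 before correction for the number of genes. For Hspa5 the difference was 0.06 ± 0.08, with an interval of -0.12 to 0.23.

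Genes of the same pathways outside the members were read from 4 further lists. Of 46 tested genes of ER quality control and of ATF6 or XBP1, 2 were called higher and 3 lower in mdx against WT, and 4 higher and 0 lower in mdx sln+/- against WT. Beside these and the counts of the other lists stand the shares of all genes called, 15.1% in mdx and 15.9% in mdx sln+/- against WT, or 8.15% and 9.41% higher and 6.94% and 6.5% lower. Creb3l1, an ER-bound factor related to ATF6 that raises collagen secretion genes, was at 2.28, 2.48 and 2.19 in mdx sln+/-, 2.66, 2.34 and 2.50 in mdx and 1.65 and 1.41 in WT. It rose by 0.97 ± 0.15 in mdx and by 0.79 ± 0.15 in mdx sln+/- against WT (limma, adjusted p = 0.0107 and 0.0179). Mbtps2 encodes the site-2 protease that frees ATF6 and Creb3l1 from the membrane. It fell by 0.60 ± 0.15 in mdx against WT (limma, adjusted p = 0.037), with -0.40 ± 0.15 in mdx sln+/- against WT (adjusted p = 0.107). Also called in mdx were Kdelr3, higher, and Sec62 and Stt3b, lower, and in mdx sln+/- Atf6b, Ssr2 and Vcp, higher.

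Of 14 eIF2alpha kinases and translation factors none was called in mdx against WT (limma; 4 had an unadjusted p under 0.05) and 1 was in mdx sln+/-. That gene, Eif2b5, encodes the catalytic subunit of the exchange factor that phosphorylated eIF2alpha blocks. It rose by 0.25 ± 0.06 in mdx sln+/- against WT (limma, adjusted p = 0.0368), with 0.18 ± 0.06 in mdx (adjusted p = 0.0911). Nck1, an adaptor that binds PERK, differed by 0.23 ± 0.07 in mdx and 0.14 ± 0.07 in mdx sln+/- against WT, neither of them called.

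Of 39 further ATF4 and amino acid response genes, 2 were called higher and 5 lower in mdx against WT, and 4 higher and 3 lower in mdx sln+/- against WT. Atf3, a stress-induced factor downstream of ATF4 and of other signals, had levels of 3.26, 3.44 and 3.34 in mdx sln+/-, 3.33, 3.21 and 3.39 in mdx and 1.22 and 2.04 in WT. It rose by 1.68 ± 0.23 in mdx and by 1.71 ± 0.23 in mdx sln+/- against WT, a 3.2-fold and a 3.28-fold higher level (limma, adjusted p = 0.00726 and 0.00666). Mthfd1l, a mitochondrial folate enzyme, fell by 0.96 ± 0.16 in mdx and by 0.90 ± 0.16 in mdx sln+/- against WT (limma, adjusted p = 0.012 and 0.0136). Its levels were low, at 0.71 to 1.05 in mdx sln+/-, 0.71 to 1.01 in mdx and 1.74 and 1.88 in WT. Slc3a2, a subunit of amino acid transporters, and the methionyl-tRNA synthetase gene Mars were called lower in both, and Shmt1 was called higher in both. In mdx Cth and Eprs were also called lower, with levels of Cth of only 0.18 to 0.79 in mdx. In mdx sln+/- Ddit4 and Eif4ebp1 were also called higher. The list thus held called genes in both directions.

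The mitochondrial stress response was read from 13 tested genes, of which 1 was called, higher, in each comparison with WT, beside 8.15% and 9.41% of all genes in mdx and mdx sln+/-. Lonp1, the protease of the mitochondrial matrix, was at 7.28, 7.30 and 7.25 in mdx sln+/-, 7.22, 7.21 and 7.27 in mdx and 7.02 and 6.96 in WT. It rose by 0.24 ± 0.06 in mdx and by 0.29 ± 0.06 in mdx sln+/- against WT (limma, adjusted p = 0.0448 and 0.0263). Clpx, a chaperone subunit of another matrix protease, differed by -0.25 ± 0.09 in mdx and -0.15 ± 0.09 in mdx sln+/- against WT, neither of them called. Of the calls of genes outside the members, that of Atf3 held in 20 of 21 alternatives in each comparison with WT. Creb3l1 kept its call in 17 of 20 in mdx and 16 of 20 in mdx sln+/-, and Mthfd1l in 17 of 20 and 14 of 20. Lonp1 kept its call in 8 of 21 in mdx and 16 of 21 in mdx sln+/-, Mbtps2 in 12 of 21 in mdx and Eif2b5 in 11 of 21 in mdx sln+/-.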

How the data were processed

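Left-ventricular RNA was sequenced with paired ends, per the labels. The submitters' processing notes name STAR 2.6.1, Partek, limma and the mm10 build. The deposited table holds log2 values of transcripts in 16 columns, which pair an r1 with an r2 column of the same library, per the file headers. The scale, log2(normalized abundance + 1), is an inference from the range of the values. Division by length, sequencing depth and the meaning of r1 and r2 are not given in the sources used here, so levels are not compared between genes and no counting error is stated. Columns r1 and r2 correlated at 0.981 to 0.987 and were averaged to 1 replicate.

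A gene is the sum of its transcripts on the linear scale, logged again with a pseudocount of 1. The test took the 13783 genes that reached 1 in 2 or more libraries and left out 795. For all transcripts, mdx 2 and mdx sln+/- 2 average to the same value as the other 4 libraries of the mdx groups (largest difference 5.12e-05), so a contrast was removed before deposit. limma 3.58.1 (R 4.3.3, trend on mean level) was fitted to all 8 libraries with group and a term for that contrast, leaving 4 residual degrees of freedom. The term is absent where only 1 of its 2 libraries is in the fit, since it would only drop that library. p-values were adjusted by Benjamini-Hochberg for each of 3 comparisons. In simulated data for mdx against WT, over 13783 genes, this fit recovered 86 of 100 genes changed by a log2 of 1 and 98 of 100 changed by 2, with 4 unchanged genes among 188 calls. Without the term, 35 unchanged genes were among 227 calls. The changed genes were drawn from those with a mean level of at least 2. Smaller changes, as most members had, were not simulated, so their recovery is not known.

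The members and lists were chosen with earlier results of these data known. By rule, the sensors and transcription factors, called members, in each list the 2 members of lowest p in mdx against WT and the 2 genes of each other pathway list with the smallest adjusted p are named; other genes with values, such as Hspa5, Ddit3, Chac1 and the further called pathway genes, were named after their values were seen. Positions are from GENCODE M21 and promoters from RefSeq GRCm38.p6. Python 3.11.15, numpy 2.4.6, pandas 2.3.3 and matplotlib 3.10.9 were used. Alternatives covered the design, the libraries included, scaling, pseudocount, filters, value columns and transcript choice.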

Additional observations from a re-analysis of the deposited data

How the results depend on the processing

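No member and no gene was called in mdx sln+/- against mdx under any of the 21 alternatives, and no called difference changed sign among the 20 genes named by rule, for which alternatives were run. In mdx against WT, 14 members were called with group only in the design, 0 with only the plainly named libraries and 0 without WT 2 and mdx sln+/- 3, against 6. The counts of all genes there were 3798, 122 and 126, against 2080. In mdx sln+/- against WT, members called were 10 with group only, 3 with the style of library name as a term, 1 with only the plainly named libraries, 0 without WT 2 and mdx sln+/- 3, 9 with only the groups compared, 3 with median-ratio scaling and 3 with r2 columns alone, against 5. The counts of all genes were 3996 with group only, 333 with only the plainly named libraries, 39 without WT 2 and mdx sln+/- 3 and 3803 with only the groups compared, against 2193. Group only counts 1 degree of freedom too many, and the fit on the plainly named libraries leaves 1 residual degree of freedom. The fits of only the groups compared with WT lack the term for the removed contrast. Other causes were not tested.

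Leaving out 1 library at a time gave 3 to 9 members and 579 to 3074 genes in mdx against WT, and 1 to 9 members and 316 to 3286 genes in mdx sln+/- against WT. The lowest gene counts came without WT 2 in mdx and without mdx sln+/- 1 in mdx sln+/- against WT. The highest came without mdx sln+/- 2 in mdx and without mdx 2 in mdx sln+/- against WT. Those fits also lack the term for the removed contrast, so the model changed with the library. With the replicate number as a block, 7 members and 2397 genes were called in mdx against WT, and 7 members and 2363 genes in mdx sln+/- against WT. Deviations of mdx and mdx sln+/- libraries with the same number correlated at -0.26 for number 1 and -0.31 for number 3. For number 2 the value was -1.0, as the removed contrast forces. The same removal also ties the deviations of numbers 1 and 3, so these values cannot show whether the numbers pair the libraries. With 2 WT libraries and unknown depth, small differences of single members could not be resolved.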
